A study of Mus musculus with 12 samples.

Results

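The high mobility group genes Hmga1, Hmga1b, Hmga2, Hmgb1, Hmgb2, Hmgn1 and Hmgn2 were followed through RNA sequencing of the mouse colon carcinoma line CT26. They are 7 of the 12584 genes in the deposited table of FPKM values (fragments per kilobase of gene length and mega-read) and were selected by name. The choice was made because Hmga1b was much higher in the libraries with D in their name and because Hmgb1 is a danger signal, so the values with and without D chose the set and are given below as a description, with no test. Treatment lasted 24 h in each of 4 groups of 3 libraries, which were PBS (libraries N1 to N3), NP@M (N4 to N6), NP-D@M (N7 to N9) and NP-D@MP (N10 to N12). The labels do not spell out NP, D, M or P. According to the series title the preparation is a nanodrug that carries engineered membrane of cancer cells, is aimed at CDKs and accompanies treatment with antibody to PD-L1. All groups share the line. Separate cultures are not stated for the libraries of a group, and the p-values below then reflect just the spread among these samples, possibly a technical one.

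High mobility group proteins are small, abundant chromatin proteins that recognise the shape of DNA or the nucleosome. HMGA proteins hold AT hooks that grip the minor groove of AT-rich DNA, and they are high in embryonic and tumour cells and low in most adult tissues. HMGB proteins bend DNA with HMG boxes, and HMGB1 that leaves dying or stressed cells acts on receptors of immune cells as a danger signal. HMGN proteins bind the nucleosome core and compete with linker histone H1.

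Sequence decides how far each of these genes can be told from its relatives, so it is shown first. Hmga1 (ENSMUSG00000046711) lies at chr17:27556497-27563674 on the plus strand of GRCm38 and encodes the HMGA1 proteins. Hmga1b (ENSMUSG00000078249) lies at chr11:120762794-120764419, also on the plus strand, and is annotated with 1 exon. In spite of its symbol this gene is not the protein form called HMGA1b, which is a shorter splice form of Hmga1. Transcript Hmga1b-201 ends in 24 A bases, and its other 1602 bases aligned to transcript Hmga1-216 without a gap at 99.81% identity. The 3 mismatches were G657A, G784A and T1246G, counted from 1 at the 5′ end of Hmga1b-201, with the Hmga1b base first and the Hmga1 base last. Coding regions of both transcripts, 324 bases with the stop codon, were identical. Transcript Hmga1-201 lacks 33 of these bases and has 291. The stretch around them is printed from the GENCODE M21 transcripts because it is where forms of Hmga1 differ while the Hmga1b copy does not, with the bases absent from Hmga1-201 in capitals; it starts at base 73 of each coding region and ends at base 165, or 132 in Hmga1-201.
Hmga1b-201: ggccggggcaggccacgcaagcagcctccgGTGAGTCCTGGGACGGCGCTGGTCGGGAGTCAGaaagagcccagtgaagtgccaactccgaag
Hmga1-216: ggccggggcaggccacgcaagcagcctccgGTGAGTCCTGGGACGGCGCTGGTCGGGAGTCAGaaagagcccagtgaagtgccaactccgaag
Hmga1-201: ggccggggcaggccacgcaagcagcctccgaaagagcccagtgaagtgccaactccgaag

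The surroundings of the start sites are not alike. The RefSeq table of promoters (GRCm38.p6, 250 bases before to 50 after a start) matched all 7 genes with 9 entries. Hmga1b is shown with 1 of the 2 entries of Hmga1, because this pair held the highest FPKM among the 7 genes. In the Hmga1b entry the capitals mark the last 50 bases, which start at base 251 of the window and also occur in Hmga1 transcripts. The Hmga1b window is chr11:120762544-120762843 and the Hmga1 window is chr17:27556354-27556653, both on the plus strand.
Hmga1b promoter: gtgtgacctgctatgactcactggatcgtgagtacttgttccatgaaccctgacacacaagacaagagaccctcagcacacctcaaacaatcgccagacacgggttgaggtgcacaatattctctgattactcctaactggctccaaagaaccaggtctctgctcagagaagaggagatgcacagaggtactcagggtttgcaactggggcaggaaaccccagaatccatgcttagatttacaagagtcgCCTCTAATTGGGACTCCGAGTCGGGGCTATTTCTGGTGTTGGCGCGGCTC
Hmga1 promoter: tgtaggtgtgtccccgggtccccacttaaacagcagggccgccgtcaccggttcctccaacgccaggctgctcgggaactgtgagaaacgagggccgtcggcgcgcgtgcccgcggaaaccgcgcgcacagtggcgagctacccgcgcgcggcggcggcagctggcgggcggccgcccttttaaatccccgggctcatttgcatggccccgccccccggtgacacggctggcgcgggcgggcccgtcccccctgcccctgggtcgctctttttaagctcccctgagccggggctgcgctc
The Hmga1 window held 72.3% G and C and 4 matches to the GC box, searched as GGGCGG on both strands. The Hmga1b window held 51.3% G and C and no GC box. A GC box was present in 35.7% of the 32851 promoters in the table, and 3 or more in 10.7%. The other Hmga1 entry also held 4. GC boxes were not particular to Hmga1: Hmgn1 held 5, Hmgn2 2, and Hmgb2 and Hmga2 1 each. Of the Hmgb1 entries, chr5:149051567-149051866 held 4 and chr5:149053008-149053307 none.

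Every stretch of 50 bases in the members' transcripts was looked up in all other GENCODE M21 transcripts, on both strands, since a read from a shared stretch cannot be placed by its sequence. Hmga1 and Hmga1b had 1403 such words in common, which was 54.95% of the Hmga1 words and 88.97% of the Hmga1b words. For Hmgb1, 22.67% of the words occurred in 132 other genes, the 8 of them in the table with at least 100 shared words all being processed pseudogenes, and 98.5% of the words of its coding region did so. Over all transcripts, 18.67% of the Hmgb2 words and 25.39% of the Hmgn2 words were shared, a smaller part than in the coding regions. The coding words of Hmgb2 were shared to 95.21% and those of Hmgn2 to 100%. Those of Hmgn1 were shared to 57.44%, whereas Hmga2 shared only 9.677% of its coding words. The sources used here do not give how the authors assigned reads that fit several genes, nor whether strand was used. The levels of Hmga1, Hmga1b, Hmgb1, Hmgb2 and Hmgn2 are therefore uncertain to that extent, and least so for Hmga2 and Hmgn1. Annotated genes also overlap 3 of the members: AI413582 and Gm49774 lie on the strand opposite to Hmga1, 7 genes including Uspl1 and the pseudogene Gm8615 overlap Hmgb1, and 2 antisense RNAs and Mir763 overlap Hmga2.

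**Figure D1:**
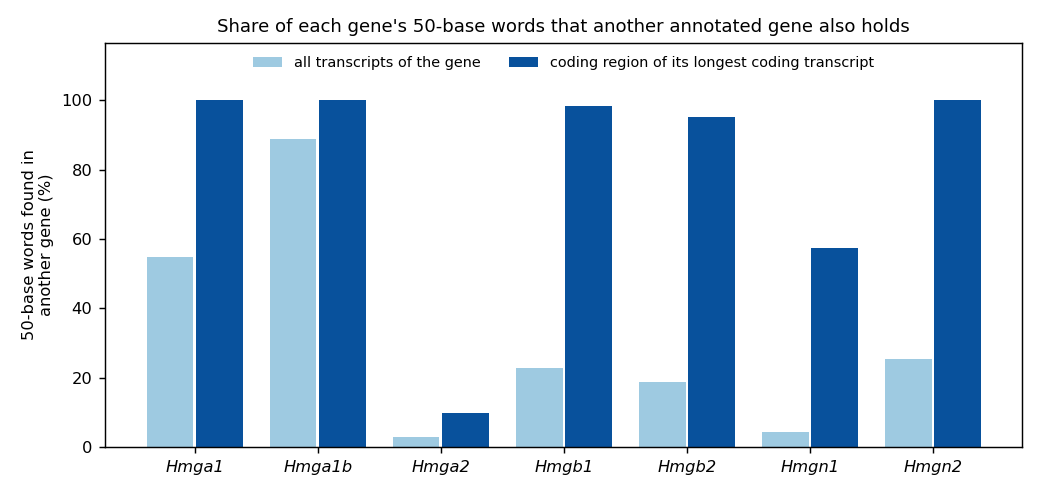
Bars give, for each of the 7 genes, the percentage of its 50-base words that occur in at least 1 other annotated gene, over all transcripts (light) and over the coding region of its longest coding transcript (dark). Coding words are shared to 95.21% or more in Hmga1, Hmga1b, Hmgb1, Hmgb2 and Hmgn2, to 57.44% in Hmgn1 and to 9.677% in Hmga2.

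A feature of the whole table bears on every value with D. Reads in the table summed to 12.8 to 15.7 M (mega-reads) per library, but the library size by which FPKM had been divided, recovered from the whole-read steps of the values, was 28.2 to 31.1 M without D and 7.13 to 8.40 M with it. FPKM as deposited therefore stands higher with D for the same share of reads in the table, and differences of the members with D are given on 2 scales: as deposited, and rescaled to table reads. Levels of list genes and profile neighbours are as deposited unless rescaled is written. Over all tested genes the median log2 difference was -0.19 as deposited and -1.40 rescaled for NP-D@M against NP@M, and -0.16 and -1.39 for NP-D@MP against PBS. Mitochondrially encoded genes took 3.30% to 4.20% of the table reads without D and 7.41% to 14.4% with it. For several members library N9 of NP-D@M lay nearer to the NP-D@MP libraries than to N7 and N8. Of markers of other cells, 0 of 8 for lymphocytes and 1 of 10 for retina, the tissue named in the extraction protocol, were in the table, the latter being Sag at up to 0.589 FPKM. Markers of endothelial cells were also looked up, and their levels are not described here. Summed markers of fibroblasts (6 of 8 in the table) lay at 70.6 to 86.6 FPKM without D and 11.1 to 15.4 with it, and those of myeloid cells (4 of 8) at 8.88 to 10.7 and 12.5 to 26.0, with Ptprc, which marks all leukocytes, at a mean of 0.00933. Rescaled, the fibroblast sums were 141.03 to 169 without D and 6.26 to 8.25 with it, lower as before, but the myeloid sums were 18.0 to 21.2 and 7.03 to 14.03, the opposite direction. Of markers of colon epithelium, the tissue of the line itself, only 2 of 10 were in the table. Their sums lay at 15.1 to 18.7 FPKM without D and 73.0 to 91.1 with it, or 30.3 to 36.7 and 41.3 to 48.7 rescaled. The labels name the CT26 line alone, so markers of other cell types may come from the line itself, and no mixture of cells is shown by them. The part of these differences in the results was not tested, and in bulk RNA fewer cells of a type and less RNA per cell cannot be told apart.

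The 7 genes spanned a wide range of levels in untreated cells, and their order can be read within a library, where scaling plays no part. In PBS, mean FPKM ran from Hmga1b at 164 ± 20.8 (SD, n = 3) through Hmga1 at 94.4 ± 10.5, Hmgn1 at 56.0 ± 3.89, Hmgb2 at 46.3 ± 0.988, Hmga2 at 19.7 ± 1.63 and Hmgb1 at 11.1 ± 0.996 to Hmgn2 at 1.28 ± 0.0690. No neighbours in this order overlapped over the 3 PBS libraries. The order was the same in NP@M. With D, Hmga2 stood above Hmgb2 in all 6 libraries and the rest of the order was kept: in NP-D@M the lowest Hmga2 value was 23.9 FPKM and the highest Hmgb2 value 14.8, and in NP-D@MP these were 21.7 and 14.9.

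Reads of the 7 genes were also shared out differently. Hmga1 and Hmga1b together held 47.6% ± 3.19 (SD, n = 3) of them in PBS, 38.0% ± 3.12 in NP@M, 81.7% ± 1.72 in NP-D@M and 84.8% ± 0.502 in NP-D@MP. Hmgb1 and Hmgb2 together held 19.9% ± 1.64, 24.1% ± 1.02, 1.03% ± 0.139 and 0.925% ± 0.0489 in the same order of groups. The HMGA1 pair thus made up most of the reads of this family with D, while the HMGB pair was a small part. All 7 genes together took 0.194% ± 0.00695 of the table reads in PBS and 0.396% ± 0.0148 in NP-D@MP.

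**Figure D2:**
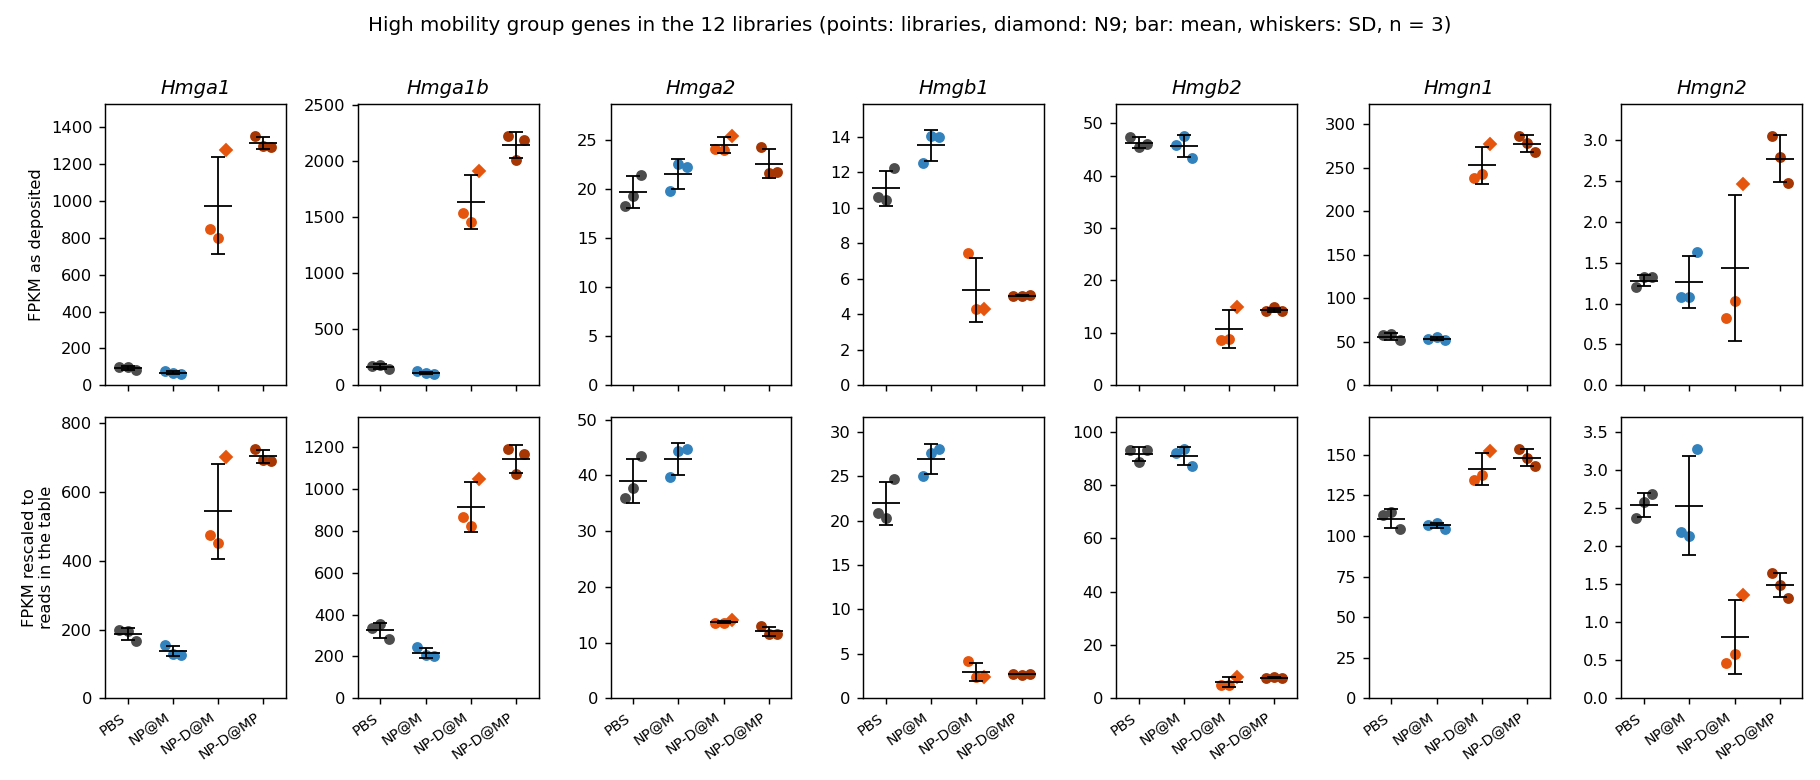
Each point is a library, with FPKM as deposited in the upper row and FPKM rescaled to the reads in the table in the lower row, both on linear axes from 0; bars are means and whiskers SD of 3 libraries, and the diamond is N9. Hmga1 and Hmga1b stand far higher with D in both rows, Hmgb1 and Hmgb2 lower in both rows, and Hmga2 differs in opposite directions between the rows.

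Hmga1b was the highest member in all 12 libraries. Its FPKM was 172, 181 and 141 in the PBS libraries N1 to N3 and 123, 106 and 99.8 in the NP@M libraries N4 to N6. With D it was 1536, 1459 and 1907 in N7 to N9 and 2227, 2007 and 2191 in N10 to N12. No library with D came near those without it. The mean was 14.9 times as high in NP-D@M (1634 ± 240, SD, n = 3) as in NP@M (109 ± 11.9), and 13.02 times as high in NP-D@MP (2142 ± 118) as in PBS. Rescaled to the reads in the table these ratios were 4.18 and 3.52. On the log2(FPKM + 1) scale the differences were 3.88 and 3.70 as deposited and 2.06 and 1.82 rescaled.

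Hmga1, the multi-exon gene, followed the same pattern. Its FPKM was 101.3, 99.6 and 82.3 with PBS and 77.1, 65.6 and 63.2 with NP@M. In the NP-D@M libraries it was 846, 800 and 1279, and in the NP-D@MP libraries 1355, 1301 and 1296. As for Hmga1b, the groups with D lay wholly above those without, and N9 lay next to the NP-D@MP values. Mean FPKM was 14.2 times as high in NP-D@M as in NP@M and 13.95 times as high in NP-D@MP as in PBS, or 3.97 and 3.77 times on rescaled values. The number of Hmga1b reads per Hmga1 read stayed between 1.14 and 1.40 over all 12 libraries. It averaged 1.33 ± 0.0498 (SD, n = 3) in PBS, 1.22 ± 0.0129 in NP@M, 1.31 ± 0.145 in NP-D@M and 1.24 ± 0.0578 in NP-D@MP, so the pair moved by far more than its own ratio. With 1403 words in common, how reads were split between the copies was not tested.

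Hmga2, the other HMGA gene and a classical oncofetal gene held down by let-7 miRNAs in adult tissue, did not follow the pair. Its FPKM lay between 18.3 and 22.6 in the 6 libraries without D and between 21.7 and 25.4 in the 6 with it. The log2 differences with D were 0.18 and 0.19 as deposited and -1.58 and -1.61 rescaled, so their sign rests on the scale. Within a library the comparison with Hmga1 needs no scale: Hmga2 FPKM was 0.212 ± 0.0431 (SD, n = 3) of that of Hmga1 in PBS, 0.318 ± 0.0530 in NP@M, 0.0261 ± 0.00543 in NP-D@M and 0.0171 ± 0.000689 in NP-D@MP.

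Hmgb1 and Hmgb2 were lower with D on both scales. Hmgb1 (chr5:149046702-149184489, minus strand) had 10.6, 10.4 and 12.2 FPKM with PBS and 12.5, 14.05 and 13.98 with NP@M. It had 7.42, 4.31 and 4.32 FPKM in N7 to N9 and 5.03, 5.01 and 5.08 in N10 to N12. The highest library with D was N7, which still lay below the lowest PBS library. Mean FPKM was 2.53 times as high in NP@M as in NP-D@M and 2.20 times as high in PBS as in NP-D@MP. Rescaled, these ratios were 8.99 and 8.16. Behind the values with D stood 157 to 313 reads per library, against 1604 to 2182 without it.

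Hmgb2 (chr8:57511907-57515999, plus strand), which is expressed with proliferation, showed the larger difference of the pair. Its FPKM was 47.4, 45.4 and 46.1 with PBS and 45.9, 47.6 and 43.4 with NP@M, which overlap. With D it was 8.57, 8.77 and 14.8 in N7 to N9 and 14.1, 14.9 and 14.1 in N10 to N12. Mean FPKM was 4.26 times as high in NP@M as in NP-D@M and 3.23 times as high in PBS as in NP-D@MP, and 15.2 and 11.97 times as high on rescaled values. The promoters of both genes are printed because both were lower with D, with each CCAAT in capitals. The Hmgb1 window is chr5:149053008-149053307 on the minus strand and the Hmgb2 window chr8:57511593-57511892 on the plus strand, and letters run 5′ to 3′ on the gene's strand.
Hmgb1 promoter: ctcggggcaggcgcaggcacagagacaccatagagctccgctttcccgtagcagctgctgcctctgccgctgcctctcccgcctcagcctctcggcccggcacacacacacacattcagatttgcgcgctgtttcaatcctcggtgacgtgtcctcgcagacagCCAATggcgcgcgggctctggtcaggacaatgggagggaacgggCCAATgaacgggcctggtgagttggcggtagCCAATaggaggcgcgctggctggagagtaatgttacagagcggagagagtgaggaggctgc
Hmgb2 promoter: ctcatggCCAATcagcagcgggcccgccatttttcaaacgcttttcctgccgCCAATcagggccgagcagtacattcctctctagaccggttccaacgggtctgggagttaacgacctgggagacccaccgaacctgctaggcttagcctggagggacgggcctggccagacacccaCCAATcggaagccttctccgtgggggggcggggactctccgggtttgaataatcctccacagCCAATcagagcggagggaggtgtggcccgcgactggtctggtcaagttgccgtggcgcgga
The Hmgb1 window held 3 matches to CCAAT and the Hmgb2 window 4, counted on both strands. A CCAAT occurred in 37.4% of all 32851 promoters, and 3 or more in 3.37%. A second Hmgb1 entry, chr5:149051567-149051866, held none. Hmga1 had no CCAAT in either entry and Hmga2 had none, while Hmga1b had 1, Hmgn1 2 and Hmgn2 1.

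Processed copies of Hmgb1 in the table differed in direction as deposited. Of the 8 with at least 100 shared words 6 were tested, and in each comparison with D 3 were called higher, 2 lower and 1 neither. Rescaled, 6 of the 6 were called lower in NP-D@M against NP@M and 5 in NP-D@MP against PBS. Hmgb1-ps2, 1 of the 3 that were higher as deposited, which shares 467 words with Hmgb1, had 49.9 ± 1.504 FPKM (SD, n = 3) in PBS, 39.3 ± 3.67 in NP@M, 58.3 ± 6.57 in NP-D@M and 72.5 ± 9.82 in NP-D@MP. Rescaled, it was lower with D, at 98.8 ± 3.90, 78.3 ± 6.55, 32.5 ± 3.19 and 38.7 ± 5.33 in the same order, or log2 differences of -1.24 and -1.34. Per unit of Hmgb1 FPKM, which needs no scale, Hmgb1-ps2 was at 4.52 ± 0.390 in PBS and 2.91 ± 0.139 in NP@M, against 11.8 ± 4.16 in NP-D@M and 14.4 ± 2.02 in NP-D@MP. The copy thus stood above its parent in FPKM in every group, and further above it with D; the parent's annotated length of 5023 bases enters its FPKM. In reads, Hmgb1-ps2 had 0.573 ± 0.0494 of the Hmgb1 count in PBS and 1.82 ± 0.256 in NP-D@MP. Whether reads of Hmgb1 messenger RNA were counted at its copies was not tested.

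**Figure D3:**
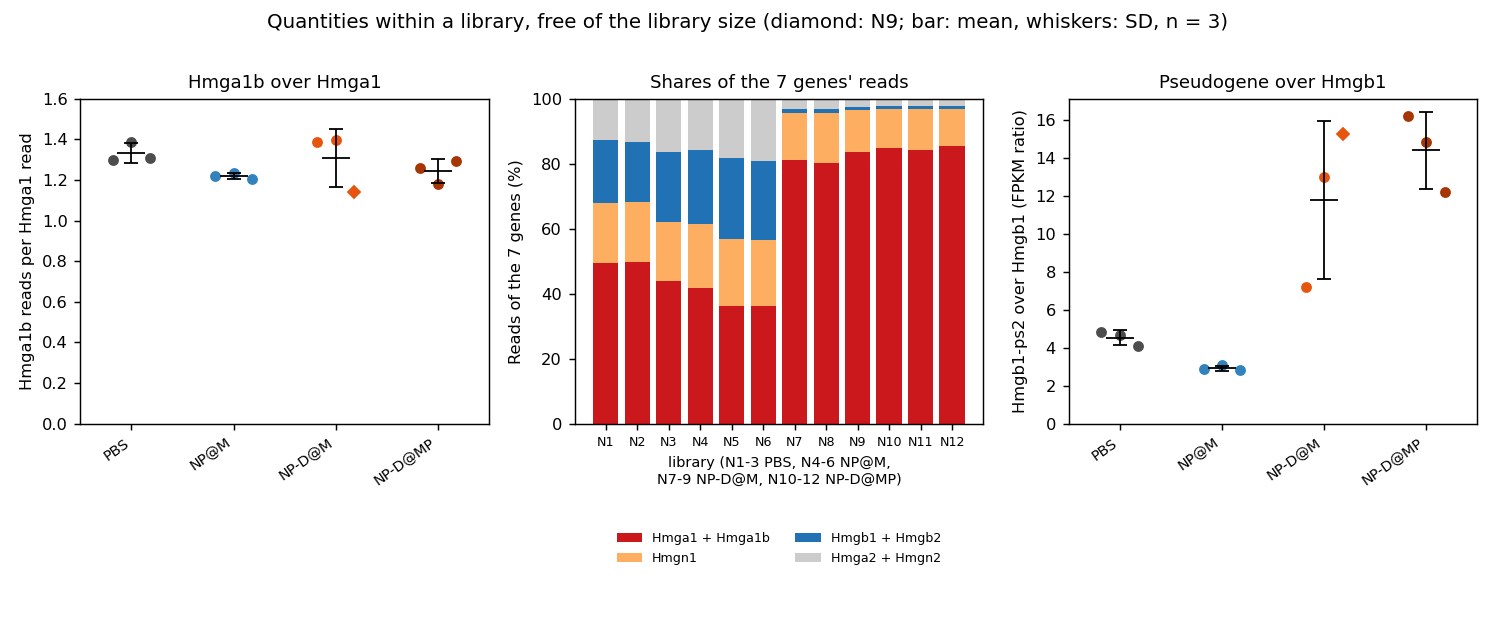
Quantities that do not depend on the library size: Hmga1b reads per Hmga1 read (left), the share of each gene pair in the reads of the 7 genes by library (middle) and the FPKM of Hmgb1-ps2 over that of Hmgb1 (right); points are libraries, bars means and whiskers SD of 3 libraries. The left ratio lies between 1.14 and 1.40 throughout, the red share is 80.3% or more in every library with D, and the right ratio averages 4.52 and 2.91 without D and 11.8 and 14.4 with it.

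Hmgn1 (chr16:96120618-96127729, minus strand), a nucleosome-binding protein that loosens chromatin and can act as an alarmin outside the cell, was higher with D. Its FPKM was 57.4, 58.9 and 51.6 with PBS, 53.4, 54.9 and 52.0 with NP@M, 239, 243 and 277 with NP-D@M and 287, 278 and 268 with NP-D@MP. Groups with and without D did not overlap. The mean ratio was 4.73 for NP-D@M over NP@M and 4.96 for NP-D@MP over PBS, but 1.33 and 1.34 after rescaling, and the log2 differences were 2.22 and 2.29 as deposited and 0.40 and 0.42 rescaled. After quantile normalization they were -0.03 in both comparisons. Relative to the other members Hmgn1 took a smaller share with D: 12.1% ± 0.432 (SD, n = 3) of the reads of the 7 genes in NP-D@MP against 18.4% ± 0.289 in PBS.

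Hmgn2 (chr4:133964738-133968650, minus strand), a close relative of Hmgn1, was listed at a low level: 1.203, 1.32 and 1.32 FPKM with PBS, 1.09, 1.08 and 1.63 with NP@M, 0.817, 1.04 and 2.47 with NP-D@M and 3.06, 2.80 and 2.47 with NP-D@MP. These rest on 98 to 155 reads without D and 21 to 70 with it. N9 was 2.47 beside 0.817 and 1.04 in its own group. NP-D@MP stood 2.17 times as high as PBS as deposited, whereas rescaled values were 1.71 times as high in PBS, so the direction turned with the scale. Gm10282, a gene annotated as protein coding that shares 816 words with Hmgn2, held 35.2 ± 2.35 FPKM (SD, n = 3) in PBS, 27.6 ± 2.78 in NP@M, 104 ± 26.5 in NP-D@M and 130 ± 13.4 in NP-D@MP. The pseudogene Hmgn2-ps1, with 230 shared words, held 36.5 ± 1.33, 29.2 ± 3.44, 77.0 ± 0.950 and 75.0 ± 7.67. Rescaled, neither was higher with D: Gm10282 was at 69.7 ± 3.71, 54.9 ± 5.22, 58.2 ± 13.9 and 69.3 ± 7.28, called in neither comparison with D, and Hmgn2-ps1 was called lower, at log2 differences of -0.42 and -0.84. Both copies stood far above Hmgn2 itself, whose coding words were all shared, and how reads were assigned between them was not tested.

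Counting calls, 3 members were called higher (Hmga1, Hmga1b, Hmgn1) and 2 lower (Hmgb1, Hmgb2) in NP-D@M against NP@M by limma at a Benjamini-Hochberg adjusted p under 0.05, where 41.8% of the 10101 tested genes were called higher and 47.7% lower. In NP-D@MP against PBS, 4 were called higher, now with Hmgn2, and the same 2 lower, beside 43.2% and 47.3% of all tested genes. Rescaled to the reads in the table, 3 were called higher and 4 lower in each comparison, beside 16.2% higher in both and 73.2% and 73.4% lower. Because these comparisons chose the set, nothing is read from the counts. All 7 members reached 1 FPKM in 3 or more libraries, the filter used. The D differences of all genes also went with composition, length and level: the median in NP-D@M against NP@M was -0.70 in the 10% of genes with the least GC and 0.57 in the 10% with the most, and 1.70 in the shortest 10% and -0.64 in the longest 10%. In the 10% of genes with the highest mean FPKM in NP@M it was 1.74, and in the 10% with the lowest 0.94. By level in PBS, the highest 10% had a median of 1.88 in NP-D@MP against PBS. Hmga1 and Hmga1b were in the top class by GC content and Hmgb1 and Hmgb2 in the bottom class. Hmga1, Hmga1b, Hmgb2 and Hmgn1 were in the top class by level, and the part of all this in their differences was not tested.

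**Figure D4:**
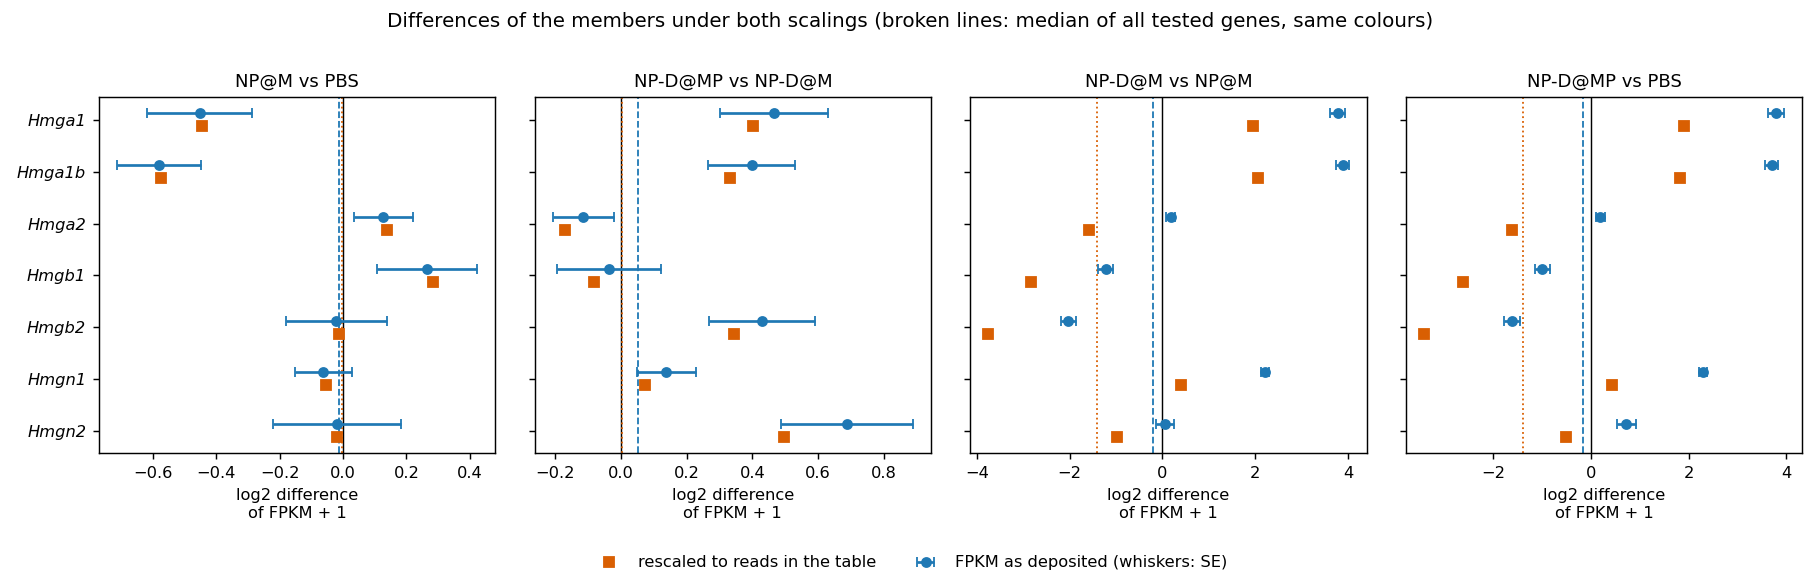
Log2 differences of FPKM + 1 for the 7 genes in 4 comparisons, as deposited (circles, whiskers are limma standard errors) and rescaled to the reads in the table (squares), with broken lines at the median of all tested genes on each scale; the axes differ in range. In the right-hand panels the scales lie apart, with Hmga1 at 3.78 and 1.96 in NP-D@M against NP@M, whereas in the left-hand panels, where both groups have D or both lack it, they lie closer together.

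The remaining comparisons did not enter the choice of the set and were tested. NP@M against PBS asks what the preparation labelled NP@M, without D, does. Hmga1b and Hmga1 were the members with the largest differences: Hmga1b had a mean of 109 ± 11.9 FPKM against 164 ± 20.8 (log2 difference -0.58, SE 0.133) and Hmga1 68.6 ± 7.43 against 94.4 ± 10.5 (log2 difference -0.45, SE 0.165). Hmgb1 had 13.5 ± 0.885 against 11.1 ± 0.996 FPKM, at a log2 difference of 0.27. Over all genes none of the 7 passed: the limma adjusted p was 0.448 for both Hmga1b and Hmga1 and 0.528 for Hmgb1. Of all tested genes 0.0099% were called here. At an unadjusted p under 0.05 were 2 of the 7 by limma, beside 10.8% of all tested genes. These were Hmga1 and Hmga1b, which have 1403 words in common and may not be separate observations. Limma voom on the recovered reads called 0 of the 7, with 3 under that unadjusted p beside 24.4% of all genes.

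NP-D@MP against NP-D@M asks what P adds to the preparation with D. Hmga1, Hmga1b, Hmgb2 and Hmgn2 had higher means with P, at log2 differences of 0.47 (SE 0.165), 0.40 (SE 0.133), 0.43 (SE 0.161) and 0.69 (SE 0.201). Hmgn1 was at 0.14, Hmgb1 at -0.04 and Hmga2 at -0.11. None of the 7 was called by limma, with adjusted p-values from 0.1997 for Hmgn2 to 0.929 for Hmgb1, where 0.0495% of all genes were called. At an unadjusted p under 0.05 there were 4 by limma and 4 by voom, beside 17.0% and 13.7% of all genes, and voom called 0. This outcome rests on N9 and on which libraries set the spread. Without N9, in a fit to the other 11 libraries, 4 of the 7 were called higher and none lower, beside 12.4% of 10031 tested genes called in either direction: Hmgb2 at a log2 difference of 0.67 (limma adjusted p 0.00234), Hmgn2 at 0.97 (0.00258), Hmga1 at 0.68 (0.00885) and Hmga1b at 0.51 (0.0293). In a fit to just the 5 libraries left in this comparison, an alternative chosen after seeing the data, the differences were the same but 0 of the 7 were called, with limma adjusted p-values from 0.0887 for Hmgn2 to 0.735 for Hmgb1. There 0.0% of all genes were called, and 4 of the 7 had an unadjusted p under 0.05 beside 20.4% of all genes. With N9 kept and only the 6 libraries compared in the fit, adjusted p-values of the 7 were 0.599 to 0.960.

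Over all 12 libraries, the profiles most like that of Hmga1b were sought among 9053 genes, predicted loci left out, by the root mean square difference of log2(FPKM + 1) after subtracting each gene's mean. The closest were Fkbp8 at 0.0883, Hmga1 at 0.0921, Gpc1 at 0.0950, Akt1 at 0.112 and Rab5c at 0.114. Fkbp8, an anchor of BCL2 at mitochondria, went from 22.0 ± 2.63 FPKM (SD, n = 3) in PBS and 15.8 ± 2.49 in NP@M to 242 ± 53.6 in NP-D@M and 317 ± 28.3 in NP-D@MP. Rescaled, these were 43.6 ± 4.44, 31.6 ± 5.19, 135 ± 27.7 and 169 ± 15.6. Its lower values in NP@M than in PBS and its higher values in NP-D@MP than in NP-D@M follow the same order as Hmga1b. Fkbp8 was chosen by likeness over these same libraries, so this order is no separate observation. For Hmgb1 the closest were Fbxl5 at 0.0902, Kif2a at 0.0928, Pik3ca at 0.107, Zfp266 at 0.110 and Cpeb4 at 0.112. Fbxl5, a subunit of an iron-sensing ubiquitin ligase, went from 5.23 ± 0.396 and 6.10 ± 0.316 FPKM to 1.93 ± 0.607 and 1.88 ± 0.257 in the same order of groups, and rescaled from 10.4 ± 0.974 and 12.2 ± 0.492 to 1.08 ± 0.347 and 1.01 ± 0.137. Among all other genes of the table, Hmgb2 ranked 5123 of 12583 in likeness to Hmgb1, at 0.502. This measure counts the size of differences as well as their direction. Both genes were lower in NP-D@M than in NP@M, Hmgb2 at a log2 difference of -2.03 and Hmgb1 at -1.23, so the rank does not show opposite behaviour.

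Other genes of the family and its pathways were taken from 8 lists with 65 tested genes. They are described by counts beside the shares of all genes given above, and no list was tested as such. None of the 65 was called by limma or voom in NP@M against PBS or in NP-D@MP against NP-D@M, although 13 and 17 had an unadjusted p under 0.05 by limma, and 22 and 13 by voom, where the shares of all genes were those given for the members. Without N9, 13 were called in the latter comparison, 9 higher and 4 lower, and 0 in the fit to the 5 libraries left.

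Of 6 other HMG genes, Hmgb3, Hmgn3 and Hmgn5 were tested. Hmgn5, an HMGN protein with a long acidic tail, had 6.96 ± 1.23 FPKM (SD, n = 3) in NP@M and 29.1 ± 2.02 in NP-D@M, and Hmgn3 had 3.22 ± 0.205 and 10.003 ± 1.81. Hmgb3 was at 13.7 ± 0.704 and 14.4 ± 0.766. In both comparisons with D, 2 of the 3 were called higher as deposited, and rescaled none was higher and 1 was lower. Among other proteins with an HMG box, 3 of 15 were called higher and 11 lower in each comparison with D, and 2 and 15 of 17 after rescaling. Ssrp1, a subunit of the histone chaperone FACT, was higher, at 73.9 ± 2.88 FPKM in NP@M and 354 ± 12.8 in NP-D@M, as was Hmg20b, a partner of the LSD1 complex, at 4.001 ± 0.664 and 25.3 ± 7.31. Ubtf, the factor that opens ribosomal RNA genes, was lower at 12.8 ± 0.1203 and 8.62 ± 1.63.

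Receptors and partners that HMGB1 meets at the cell surface were mostly absent from the table, with 6 of 17 listed and 5 tested. Of these 1 was called higher and 4 lower in each comparison with D on either scale. Tlr4, a receptor of HMGB1, had 7.08 ± 0.877 FPKM in NP@M and 1.00 ± 0.553 in NP-D@M (SD, n = 3). Its co-receptor Cd14 had 7.30 ± 0.586 and 4.40 ± 2.74. Il1r1, the receptor of interleukin 1, which HMGB1 can bind, had 4.86 ± 0.233 and 3.25 ± 0.511. Genes that modify, export or release HMGB1 were called higher in 10 and lower in 4 of 16 in each comparison, which turned to 4 and 12 of 17 after rescaling. Hdac1, a deacetylase, went from 9.36 ± 0.549 to 77.9 ± 6.035 FPKM, Parp1, which adds ADP-ribose to HMGB1, from 11.7 ± 0.991 to 75.6 ± 9.36 and thioredoxin Txn1 from 137 ± 5.60 to 1586 ± 164 between NP@M and NP-D@M. These 3 were also called higher on rescaled values.

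Other danger signals were mostly higher, with 9 of 10 called higher and 1 lower in each comparison with D, and 6 higher after rescaling, with 2 lower in NP-D@M against NP@M and 1 in NP-D@MP against PBS. The list's median log2 difference was 2.87 in NP-D@M against NP@M and 1.05 rescaled, beside -0.19 and -1.40 for all genes. Of its 10 tested genes 8 were in the top 10% by level in NP@M, where the median of all genes was 1.74 as deposited, and the part of level in the list's median was not tested. S100a6 went from 162 ± 17.3 FPKM (SD, n = 3) in NP@M to 3188 ± 638 in NP-D@M, calreticulin (Calr), which is exposed on dying cells, from 110 ± 2.90 to 1300 ± 53.9, and cyclophilin A (Ppia) from 133 ± 27.0 to 1324 ± 80.5. Hmgb1, counted at its own entry alone, was lower on both scales and stood on the other side from these 3. Of its coding words 98.5% occur in other genes, and whether its reads were counted at copies was not tested.

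Among regulators and targets of Hmga1 and Hmga2, 1 of 8 was called higher and 7 lower in each comparison with D, and none and 7 after rescaling. Myc, which binds the Hmga1 promoter in other cells, had 27.8 ± 1.33 FPKM (SD, n = 3) in NP@M and 15.2 ± 2.90 in NP-D@M. Hmga1 itself was higher, and a link between these genes was not tested. Smad4, a partner of HMGA2 in TGF-beta signalling, had 19.3 ± 1.58 and 2.84 ± 0.298, and E2f1 had 9.69 ± 0.637 and 36.3 ± 8.34. Of the linker histones, which HMGN proteins displace, 3 of 4 were called higher and 1 lower as deposited, and 2 and 2 rescaled. The one lower as deposited was H1f0, a histone of resting and differentiated cells, at 99.4 ± 7.08 FPKM in NP@M and 21.5 ± 8.52 in NP-D@M. Hist1h1e had 0.300 ± 0.185 and 9.38 ± 2.31, and Hist1h1c 20.8 ± 1.05 and 30.5 ± 5.74, lower after rescaling. In the SET complex, where HMGB2 works with a chaperone and nucleases, Nme1 had 7.875 ± 0.738 FPKM in NP@M and 106 ± 15.4 in NP-D@M, Anp32a 13.1 ± 1.71 and 26.1 ± 2.48, and Set 65.2 ± 5.57 and 67.0 ± 4.52. There, 2 of 4 were called higher in each comparison with D and none lower in NP-D@M against NP@M and 1 lower in NP-D@MP against PBS, whereas rescaled values gave 1 higher and 3 lower in both. Anp32a and Set were among those lower after rescaling in NP-D@M against NP@M.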

How the data were processed

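RNA of CT26 cells from 12 libraries in 4 groups of 3 was compared; groups and library numbers came from the sample titles. The authors deposited FPKM per gene; the tool listed is Bowtie 0.12.2 and the build mm8, per the submitters' processing notes, while 12571 of the 12584 identifiers in the table, 12104 with identical coordinates, are those of GENCODE M21 on GRCm38, the build used for coordinates. The gene counter, its strand setting and the library size are not given in the sources used here. FPKM times gene length came out as whole multiples of 1 step per library for 100% of values (relative tolerance 1e-06), which gave reads and library sizes; depth is 12.8 to 15.7 M table reads (mega-reads). Counting error is small at this depth for Hmga1, Hmga1b, Hmga2 and Hmgn1. With D it is larger for Hmgn2, Hmgb1 and Hmgb2, which rest there on 21 to 70, 157 to 313 and 191 to 366 reads.

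The test was limma 3.58.1 (R 4.3.3) on log2(FPKM + 1), all 12 libraries, genes that reached 1 FPKM in 3 or more libraries (10101 genes), Benjamini-Hochberg adjusted p under 0.05. Its steps were tested on simulated data. There the fit to 12 libraries made more false calls than the threshold allows in NP-D@MP against NP-D@M, and a fit to the 6 libraries compared made fewer, so adjusted p-values in that comparison may be too small. Members and lists were chosen with earlier results of these data known. Named beside the members were the 3 highest genes of each list by mean FPKM, list genes called in a tested comparison (none), and the 5 nearest profiles of Hmga1b and Hmgb1; the sequence relatives Hmgb1-ps2, Gm10282 and Hmgn2-ps1 were chosen after their values were seen. Alternatives were other scalings (reads in the table, median ratio, quantile), filters (none, or a mean of 5 FPKM), a pseudocount of 0.1, trend and robust settings, only the 6 libraries compared, voom on recovered reads, stricter thresholds and leaving out each library. Added after seeing the data was a fit without N9 to the 5 libraries left in NP-D@MP against NP-D@M.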

Additional observations from a re-analysis of the deposited data

How the results depend on the processing

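No member was called in NP@M against PBS under any of the scalings, filters, pseudocounts, fits, thresholds or left-out libraries tried. In NP-D@MP against NP-D@M the count of called members was 0 in all of these except without N9, so that leaving out a library gave 0 to 4; without N9 and with just the 5 remaining libraries of the comparison in the fit, an alternative chosen after seeing the data, it was 0. Small differences changed sign: in NP@M against PBS, Hmgb2 was at 0.046 after quantile normalization and, with each library left out, at -0.051 to 0.014, and Hmgn2 at -0.13 to 0.038. In NP-D@MP against NP-D@M, Hmgb1 ranged from -0.15 to 0.19 over the left-out libraries. With D, Hmgn1 was at -0.031 (NP-D@M against NP@M) and -0.033 (NP-D@MP against PBS) after quantile normalization, and Hmgn2 in NP-D@MP against PBS at -0.51 on values rescaled to table reads; the cause was not tested. Over 15 alternatives the log2 difference of Hmga1b ranged from 1.03 to 3.97 in NP-D@M against NP@M and from 0.71 to 3.77 in NP-D@MP against PBS, that of Hmgb1 from -2.83 to -1.11 and from -2.63 to -0.93, and that of Hmga2 from -1.58 to 0.21 and from -1.61 to 0.25. No paired analysis was possible because library numbers are not shared between groups. Depth limits Hmgn2 most, at 21 to 70 reads in the libraries with D.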
